A study of Mus musculus with 9 samples.

Results

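Csn3, Odam, Amtn and Odaph are 4 of the 54532 genes in the count table, and they were chosen by name as relatives of the enamel matrix genes on mouse chromosome 5. Csn3 was picked for its rise in enamel organs after early life adversity (ELA), so its difference between the groups is given as a description and carries no test. The other members were not picked for a change. Each library held RNA from first-molar enamel organ (mandible), taken from 1 male pup killed 12 days after birth. The 5 ELA pups had been raised from day 2 to day 12 in cages with limited bedding and nesting material, and the 4 control pups had not. The paper states that the lightest ELA mice were left out, and the sequenced ELA pups still weighed less on average than the controls. The part of body weight in the differences was not tested. All 9 pups, controls included, were Crh-IRES-Cre; Ai14 tdTomato offspring on a C57BL/6 background. In that cross Cre is driven from the gene for corticotropin releasing hormone and switches on a red fluorescent reporter.

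All 4 genes belong to the secretory calcium-binding phosphoproteins (SCPPs), a family of secreted proteins that arose by gene duplication and serves mineralizing tissue, milk and saliva. Ameloblasts, which are among the epithelial cells of the enamel organ, secrete amelogenin, ameloblastin and enamelin while enamel is laid down. In the later maturation stage they place a specialized basal lamina between themselves and the enamel. Odam (odontogenic ameloblast-associated protein) and Amtn (amelotin) encode proteins of that lamina. Odaph encodes a small phosphoprotein of maturing enamel whose human counterpart is mutated in a form of amelogenesis imperfecta. Csn3 encodes kappa-casein, which sits on the surface of the casein micelle in milk and keeps it stable.

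The members did not all lie side by side. All 4 are on the plus strand of chromosome 5, with the following coordinates in GRCm38. Odam (ENSMUSG00000009580, 87885029 to 87894174, 12 exons) and Csn3 (ENSMUSG00000001622, 87925579 to 87932665, 5 exons) were separated by 31.4 kb. Amtn (ENSMUSG00000029282, 88376108 to 88385916, 9 exons) started 450.5 kb beyond Csn3 and 79.9 kb before Ambn, the ameloblastin gene, and the enamelin gene Enam started 562.4 kb beyond Csn3. Odaph (ENSMUSG00000096035, 91987475 to 91995320, 2 exons) started 4061.9 kb beyond Csn3, and 66 other genes of the table, 23 of them expressed at a testable level, started between Enam and Odaph. Odaph was therefore a member of the family on the same chromosome but not a neighbour of the other 3.

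The sequences just before the transcription start are shown because several genes of the enamel matrix family carry the same short runs of letters there. A promoter was present in the RefSeq table (GRCm38.p6) for 3 of the 4 members. The 250 bases before the annotated start are given 5′ to 3′ on the plus strand, which is the gene strand. Capitals mark GATTGG within 100 bases of the start and TTAAA within 50 bases of it. GATTGG holds the letters of a CCAAT box read on the opposite strand, and TTAAA is part of many TATA-like boxes.
Odam, chr5:87884760-87885009: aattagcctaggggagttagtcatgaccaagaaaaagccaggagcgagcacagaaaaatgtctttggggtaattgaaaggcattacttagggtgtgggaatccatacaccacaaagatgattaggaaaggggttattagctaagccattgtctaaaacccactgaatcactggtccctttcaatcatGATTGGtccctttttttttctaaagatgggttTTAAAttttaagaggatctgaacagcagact
Amtn, chr5:88375858-88376107: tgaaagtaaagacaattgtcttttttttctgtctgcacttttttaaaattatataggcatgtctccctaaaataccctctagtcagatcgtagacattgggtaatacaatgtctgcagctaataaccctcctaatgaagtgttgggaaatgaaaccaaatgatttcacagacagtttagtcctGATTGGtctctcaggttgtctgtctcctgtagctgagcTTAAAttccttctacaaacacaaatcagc
Odaph, chr5:91987223-91987472: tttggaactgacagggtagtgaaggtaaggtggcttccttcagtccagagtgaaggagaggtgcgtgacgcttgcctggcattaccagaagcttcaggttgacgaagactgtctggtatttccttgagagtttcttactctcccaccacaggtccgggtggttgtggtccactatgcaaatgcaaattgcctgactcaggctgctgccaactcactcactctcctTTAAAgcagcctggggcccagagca
GATTGG began 63 bases before the start of Odam and 67 bases before the start of Amtn, and these letters were not in the Odaph window. Among the major matrix genes it began 59 bases before the start of Amelx, the amelogenin gene on chromosome X, 71 bases before Enam, and 48 and 40 bases before Ambn. Of 32851 RefSeq promoter windows of 300 bases, which include 50 bases after the start, 16.1% held GATTGG on either strand, and 4.58% held it on the gene strand within 100 bases before the start. TTAAA began 31, 29 and 25 bases before the starts of Odam, Amtn and Odaph, 30 bases before Ambn and 43 bases before Enam. It was not in the Amelx window. It was held by 37.7% of all windows on either strand, and by 4.92% on the gene strand within 50 bases before the start. The TTAAA of Odam, of Odaph and of Ambn overlapped the same letters read on the other strand. Both runs of letters were noticed after these sequences had been read, and a match is a description of the sequence and not evidence of a bound factor.

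The libraries held between 18056774 and 32110160 counts. Members and the 3 matrix genes Amelx, Ambn and Enam together took 10.4 to 15.6% of an ELA library and 8.48 to 10.1% of a control library, and the 4 members alone took 2.23 to 3.44% and 2.93 to 3.72%. Values below are in CPM, the count of a gene relative to a common library total, with totals scaled by the trimmed mean of M values (TMM). Epithelial markers summed to between 9956 and 16269 CPM in ELA and between 11896 and 18427 CPM in control mice, so the epithelium of the labelled tissue was present in every library. One ELA library, t-205-1-3, held 3703 CPM of oral and gingival keratinocyte markers against 120 to 619 CPM in the other 8, and another, t-203-1-4, held 434 CPM of neuronal markers against 38.3 to 66.4 CPM. The mouse titles carry a shared number (c-202 or c-204 in controls, t-203 or t-205 in ELA), whose meaning the labels do not give and which lies wholly within a group. Mice that share a number may be littermates, in which case p-values over mice are too small.

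Csn3 was a low-abundance member in control mice. It stood at 58.7, 82.5, 87.7 and 77.5 CPM in controls c-204-1-1, c-204-1-2, c-202-1-1 and c-202-1-2. In the ELA mice it stood at 309 and 263 CPM in t-205-1-1 and t-205-1-3, and at 694, 523 and 582 CPM in t-203-1-3, t-203-1-4 and t-203-1-5. The groups were far apart, and within ELA the 3 mice titled t-203 all lay above the 2 titled t-205. The mean of the 5 ELA mice was 474 CPM with an SD of 183, and that of the 4 controls was 76.6 CPM with an SD of 12.7. The fitted fold was 6.19, a log2 difference of 2.63 with a standard error of 0.29. The mice titled t-203 averaged 7.83 times the control mean and those titled t-205 averaged 3.73 times. The same order within ELA was seen for Enam, at 4191, 4642 and 2121 CPM in the mice titled t-203 and 649 and 389 CPM in those titled t-205, against 48.8 to 72.3 CPM in controls. Csn3 overlaps the antisense gene 1700066N21Rik, which had at most 7 counts in a library, and the counting is not known to have used strand.

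**Figure D1:**
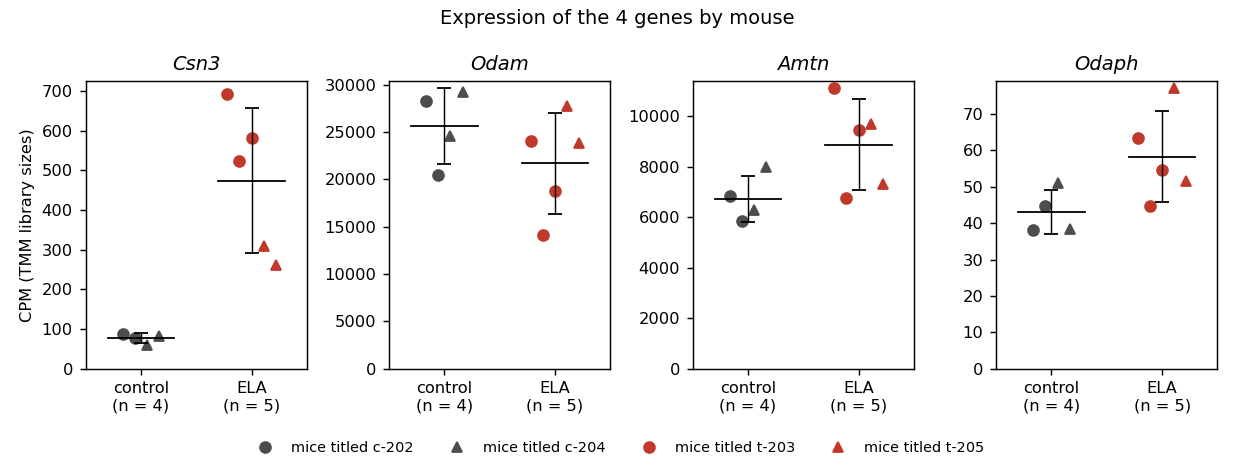
Expression in CPM of Csn3, Odam, Amtn and Odaph in each mouse, on linear axes from 0; horizontal lines are group means, bars are SD, and marker shape gives the number in the mouse title. All 5 ELA mice lie above all 4 controls for Csn3, and the groups overlap for Odam, Amtn and Odaph.

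Odam was the most abundant member and did not differ detectably between the groups. Control mice c-204-1-1, c-204-1-2, c-202-1-1 and c-202-1-2 had 24620, 29181, 28276 and 20430.1 CPM. ELA mice t-205-1-1 and t-205-1-3 had 27776 and 23846 CPM, and t-203-1-3, t-203-1-4 and t-203-1-5 had 24037, 14104 and 18725 CPM. The groups overlapped, and 2 ELA mice, both titled t-203, lay below the lowest control. The group means were 21698 ± 5328 CPM in ELA and 25627 ± 3986 CPM in controls, a log2 difference of -0.24 (SE 0.21; edgeR quasi-likelihood test, adjusted p = 0.973). The 95% interval of the fold ran from 0.615 to 1.17. Without the 3 mice titled t-203 the difference was 0.0098, and without t-203-1-4, the library with neuronal markers and the lowest Odam, it was -0.12.

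Amtn encodes the other lamina protein and was higher on average in ELA, by less than the test could call. Controls stood at 6291, 7976, 6821 and 5867 CPM, in the same order of mice. ELA mice t-205-1-1 and t-205-1-3 stood at 9680.2 and 7320.2 CPM, and t-203-1-3, t-203-1-4 and t-203-1-5 at 11130 CPM, 6770 CPM and 9456 CPM. In 3 of 5 ELA mice the value exceeded all controls, and 2 fell among them. The means were 8871 ± 1797 CPM and 6739 ± 913 CPM, a log2 difference of 0.40 (SE 0.18; edgeR adjusted p = 0.787, unadjusted p = 0.0525). The 95% interval of the fold ran from 0.997 to 1.74.

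Odaph had the lowest CPM of the members. Controls stood at 51.1, 38.5, 38.2 and 44.7 CPM in the same order, and the ELA mice at 77.1 and 51.5 CPM (titled t-205) and 63.4, 44.8 and 54.7 CPM (titled t-203). In 4 of 5 ELA mice the value exceeded all controls, and t-203-1-4 fell among them. The means were 58.3 ± 12.4 CPM and 43.1 ± 6.12 CPM, a log2 difference of 0.43 (SE 0.17; edgeR adjusted p = 0.658, unadjusted p = 0.0229). The 95% interval of the fold, 1.05 to 1.74, is not adjusted for the number of genes.

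None of Odam, Amtn and Odaph passed the adjusted threshold of 0.05 in edgeR, where 0.0629% of 15909 genes did, or in DESeq2, where 0.718% of genes did. Without adjustment 1 of these 3 genes, Odaph, had an edgeR p under 0.05, as did 6.44% of all genes. In DESeq2 the unadjusted p was 0.0235 for Amtn, 0.0214 for Odaph and 0.238 for Odam. Csn3 alone of the members had every ELA mouse above every control. It was picked for its rise, so this separation is a description and no support. Over all genes, 1.39% had such a separation. Across all genes tested the median log2 difference was 0.01, and 52.6% of the differences were positive. The 5th and 95th percentiles were -0.51 and 0.64. The differences of Odam, Amtn and Odaph lay between those percentiles.

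The spread over all mice of a group was wider in ELA for all 4 genes. The coefficient of variation was 38.7% in ELA and 16.5% in controls for Csn3, 24.6% and 15.6% for Odam, 20.3% and 13.5% for Amtn, and 21.3% and 14.2% for Odaph. Within the mice titled t-203 and t-205 it was 14.5% and 11.5% for Csn3, both below the controls. It was 26.2% and 10.8% for Odam, 24.1% and 19.6% for Amtn, and 17.1% and 28.2% for Odaph. These values are descriptive, since the difference in spread was not tested and was not set against that of all genes. In bulk tissue, fewer cells of a type and less RNA per cell cannot be told apart.

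The ratio of the lamina genes within a library, chosen after the values of both were known, differed between the groups, counted over mice. Neither gene was called alone. A ratio of counts in 1 library does not depend on scaling. For each Amtn count there were 3.91, 3.66, 4.15 and 3.48 Odam counts in the 4 controls. ELA mice had 2.87 and 3.26 in those titled t-205 and 2.16, 2.08 and 1.98 in those titled t-203, so that the groups did not overlap. The log2 ratio of Amtn to Odam was -1.28 ± 0.32 in ELA (SD, n = 5) and -1.92 ± 0.11 in controls (n = 4), a difference of 0.65 or 1.57-fold (two-sided exact permutation test, p = 0.0159, the smallest that 126 arrangements allow; adjusted over 3 ratios, p = 0.0476). Because of that choice, neither the direction of this ratio nor its p-value is independent support.

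The ratio of Odaph to Odam was also higher in ELA, with 4 of 5 ELA mice above all controls. Odam counts per Odaph count were 482, 758, 741 and 457 in the controls and 360, 463, 379, 315 and 342 in the ELA mice. The log2 difference was 0.68 or 1.61-fold (exact permutation test, p = 0.0317, adjusted p = 0.0476). The ratio of Odaph to Amtn differed by 0.04 on the log2 scale, less than the SD among mice of 0.20 in ELA and 0.36 in controls (exact permutation test, p = 0.81). The ratios to Odam share their denominator and are not separate results. All 3 ratios were chosen with the values of Odam and Amtn known, so the p-values of the ratios with Odaph are not independent support either. Both ratios to Odam kept their sign but lost the adjusted threshold when any single mouse other than t-205-1-3 was left out, where the exact test allows no p below 0.0286 with an ELA mouse omitted and 0.0357 with a control omitted. Without the 3 mice titled t-203, the Amtn to Odam difference was 0.31 (exact permutation test, adjusted p = 0.4, with 0.133 the smallest p possible), and without those titled t-205 it was 0.87. With the mean of each title number as 1 sample, 2 against 2, the differences were 0.59 for Amtn to Odam and 0.66 for Odaph to Odam, and the exact permutation test could give no p below 0.333.

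**Figure D2:**
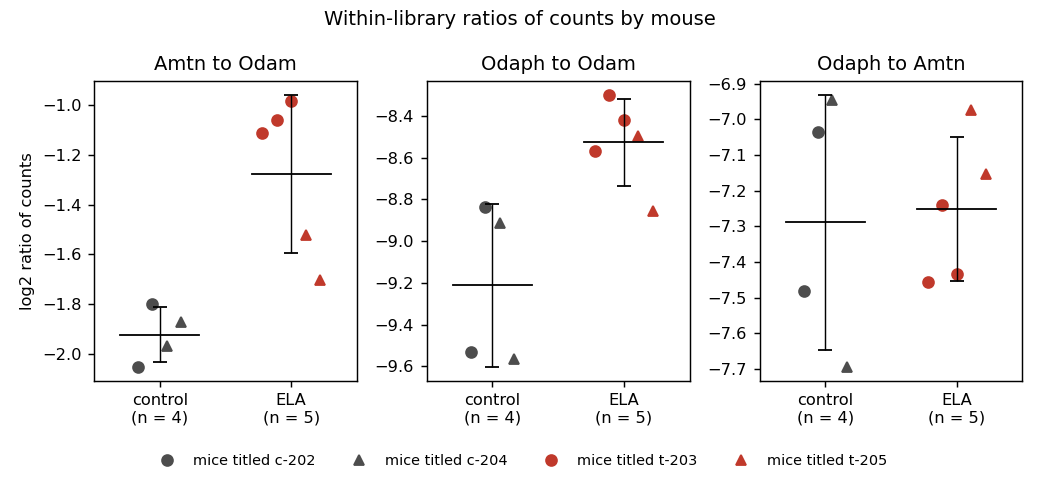
Log2 ratios of counts within each library for Amtn to Odam, Odaph to Odam and Odaph to Amtn, by group; horizontal lines are means and bars are SD, and the vertical axes do not start at 0. For Amtn to Odam all 5 ELA mice lie above all 4 controls, with the mice titled t-203 highest.

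Of the marker sums, only that of leukocytes separated the groups. Leukocyte markers summed to 60.4 to 82.9 CPM in ELA and 89.9 to 111 CPM in controls, without overlap. All 7 of 7 mesenchyme and fibroblast markers had a negative log2 difference, where 52.6% of all genes had a positive one. The sums of these markers overlapped (11917 to 23271 CPM in ELA and 15568 to 30873 CPM in controls). Erythroid markers summed to 149 to 364 CPM in ELA and 349 to 827 CPM in controls, and endothelial markers to 247 to 287 CPM and 221 to 295 CPM. No gene of the marker lists passed the adjusted edgeR threshold. At an unadjusted p below 0.05, which 6.44% of all genes met, there were 4 mesenchyme, 3 leukocyte and 2 erythroid genes lower in ELA. So was 1 gene in each of the keratinocyte, odontoblast, osteoblast and osteoclast lists. The 2 neuronal genes that were higher, Dcx and Snap25, both had their highest value in t-203-1-4, at 79.3 and 51.6 CPM. DESeq2, which called 0.718% of all genes, called 3 mesenchyme genes, 2 leukocyte genes, 1 osteoblast gene and 1 erythroid gene, all lower in ELA. The part of these cells in the members' differences was not tested. Scaling the libraries to 10 epithelial markers gave log2 differences of 2.70 for Csn3, -0.25 for Odam, 0.41 for Amtn and 0.43 for Odaph. Salivary gland markers summed to 1.31 to 10.6 CPM in ELA and 1.40 to 5.51 CPM in controls. Of the 9 genes on that list, 2 had 0 counts in every library, and the rest had counts in some library.

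**Figure D3:**
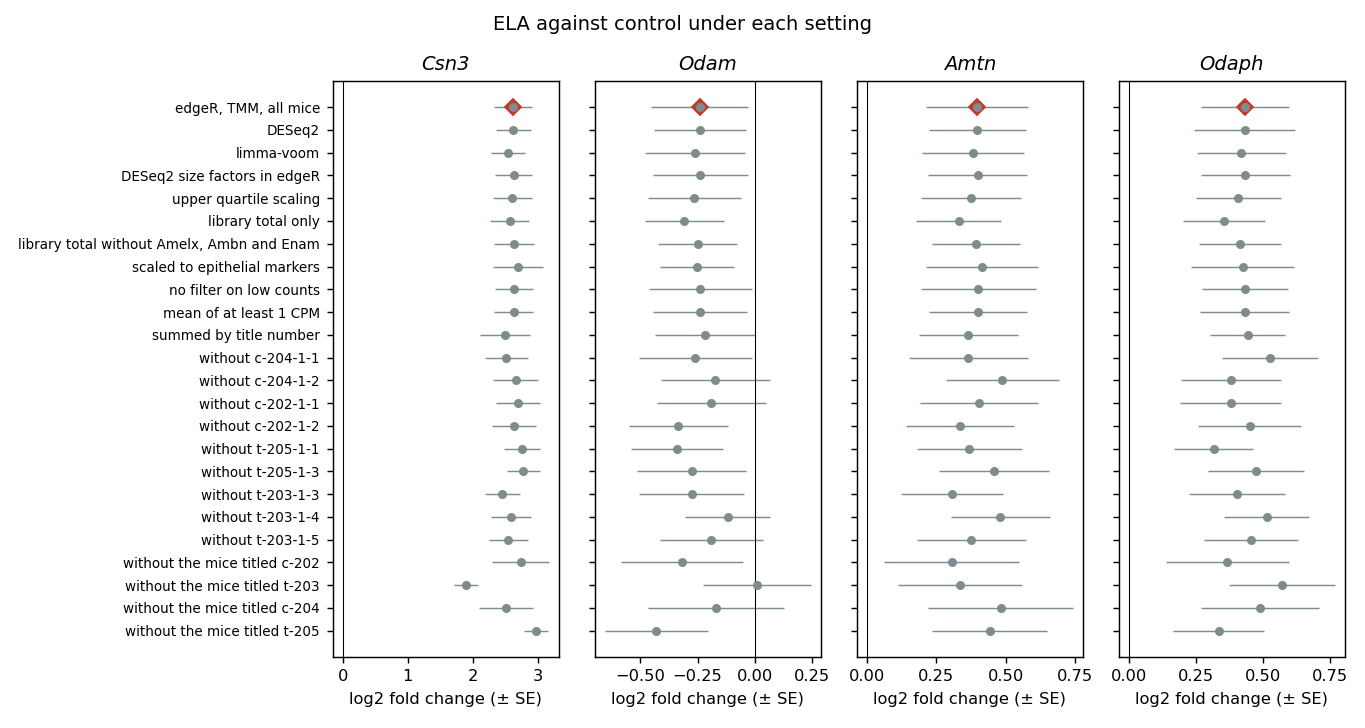
Log2 difference between ELA and control (± SE) of each member under every setting tried, with the main fit as a red diamond in the top line. Csn3 lies between 1.90 and 2.97 throughout, Amtn and Odaph stay above 0, and Odam reaches 0.0098 only without the mice titled t-203.

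Levels between genes were compared per length of transcript, as CPM divided by the length in kilobases (written FPKM) on the coding transcript length. Odam came first with 15838 ± 3889 FPKM in ELA and 18706 ± 2909.8 FPKM in controls. Amtn came next with 8680 ± 1759 FPKM and 6594 ± 893 FPKM, and these levels lay below all those of Odam in controls, while in ELA the highest Amtn value, 10890.3 FPKM, passed the lowest Odam value, 10295 FPKM. Csn3 stood at 297 ± 115 FPKM in ELA and 48.0 ± 7.94 FPKM in controls, and Odaph at 76.7 ± 16.4 FPKM and 56.7 ± 8.05 FPKM. The order of Csn3 and Odaph in controls rested on the length used, because the deposited lengths of 4152 bases for Csn3 and 3506 bases for Odaph include retained introns, whereas the coding transcripts are 1596 and 760 bases. On deposited lengths the control levels were 18.5 FPKM for Csn3 and 12.3 FPKM for Odaph, and on coding lengths their ranges overlapped. In ELA, Csn3 lay above Odaph on either length.

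Milk caseins other than Csn3 were almost absent. Csn1s1, an alpha casein, had 0 to 4 counts per library, Csn2, beta-casein, had 0 to 3, and Csn1s2b had 0 in every library. Csn1s2a, another alpha casein, had 0 to 12 counts, with 30 in all ELA libraries together and 5 in all controls. These levels were below the filter and were not tested. Of 15 genes listed for the prolactin and casein axis, which switches on milk protein genes in the mammary gland, 11 were tested and 0 passed in edgeR, at an adjusted or unadjusted p below 0.05, or in DESeq2. Their median log2 difference was 0.05. The smallest p values were those of Elf5, a mammary transcription factor (0.82, SE 0.44), and Nfib, a nuclear factor I gene (1.12, SE 0.65), which was highest in t-203-1-4 at 149 CPM. Prlr, the prolactin receptor, averaged 0.499 CPM in both groups, and the milk protein genes Lalba, Wap and Glycam1 had at most 12 counts in any library.

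Within the SCPP genes rich in proline and glutamine, the group that holds all 4 members, 17 were listed, 16 were found in the table and 4 besides the members were tested. Of those 4, 1 passed the adjusted edgeR threshold, Amelx (log2 difference 1.56, SE 0.22, edgeR adjusted p = 0.0477), as did 0.0629% of all genes. Enam had the largest difference (5.30, SE 0.79) but an edgeR adjusted p of 0.0570. DESeq2 called Enam as well as Amelx, and 0.718% of all genes. Ambn, the most abundant, stood at 0.53 (SE 0.19, edgeR adjusted p = 0.579). Scpppq1, an ameloblast gene of the family listed as Gm17660 in the table, stood at -0.63 (SE 0.50), with 18.1 CPM in t-203-1-4 as its lowest value and 199 CPM in c-204-1-2 as its highest. Smr2, Smr3a and Cabs1 had 0 counts throughout, and Muc10 reached 189 counts in t-203-1-5 and 53 in c-202-1-2. Fdcsp was not matched in the table.

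The list of acidic SCPP genes of bone and dentin, which here also held Sparc and Sparcl1, ran the other way in sign. All 7 tested genes of that list had a negative log2 difference, with a median of -0.47, where 52.6% of all genes had a positive one. Of these 7, 0 passed the adjusted edgeR threshold and DESeq2, which called 0.718% of all genes, called 1, Ibsp. An unadjusted edgeR p below 0.05, which 6.44% of all genes had, was found for 3. Ibsp, bone sialoprotein, stood at -0.92 (SE 0.22), Spp1, osteopontin, at -0.78 (SE 0.28) and Dmp1, a dentin and bone matrix gene, at -0.68 (SE 0.27). Sparc stood at -0.47, Dspp, made by odontoblasts, at -0.36, Mepe at -0.11 and Sparcl1 at -0.04. Of 4 kinases of secreted phosphoproteins, which include the Fam20 genes, 0 were called in edgeR, adjusted or not, or in DESeq2, with Fam20a at -0.39 and Fam20b at 0.12.

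**Figure D4:**
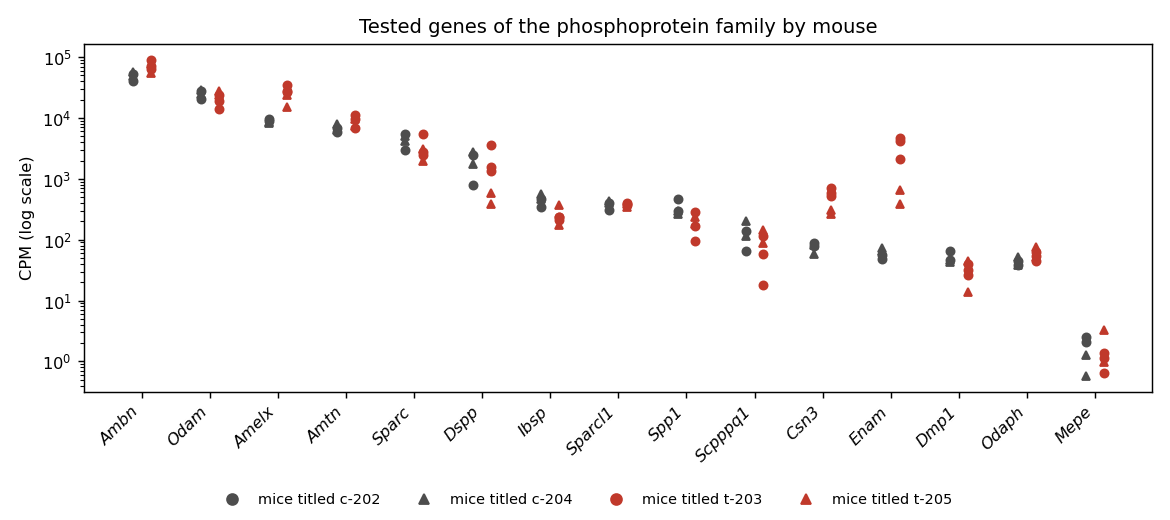
CPM on a log scale of each tested gene of the 2 SCPP lists, Sparc and Sparcl1 included, in each mouse, ordered by control mean; grey is control and red is ELA, with marker shape by title number. Csn3, Amelx and Enam separate the groups, while Odam, Amtn and Odaph overlap.

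Stage markers placed these values in context. Over all genes tested, 52.6% had a positive log2 difference and 6.44% had an unadjusted edgeR p below 0.05. After adjustment 0.0629% passed in edgeR and 0.718% in DESeq2. Of 15 maturation-stage ameloblast genes, 11 had a positive log2 difference, 0 passed the adjusted edgeR threshold, 6 were higher and 1 lower at an unadjusted p below 0.05, and 2 passed in DESeq2, Car6 (1.77, SE 0.30), a secreted carbonic anhydrase, and Car12 (1.02, SE 0.20), a membrane-bound one. Of 12 secretory-stage genes, 10 had a positive log2 difference, 5 were higher and 0 lower at an unadjusted p below 0.05, and 1 passed after adjustment in edgeR (Amelx) and 2 in DESeq2 (Amelx and Enam). Of 7 genes of the ameloblast basal lamina and adhesion, where the Odam and Amtn proteins lie, 0 passed in either tool after adjustment and 1 had an unadjusted edgeR p below 0.05. Among them Lama3, which encodes a laminin chain, stood at 0.32 (SE 0.17).

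Among the genes around the members, Enam alone was called, by DESeq2 and limma-voom and not by edgeR over all 9 mice. Within 1 Mb of a member start there were 130 other genes, of which 54 had no count in any library and 30 were tested. Of these 30, 0 passed the adjusted edgeR threshold, and their median log2 difference was 0.01. At an unadjusted p below 0.05, which 6.44% of all genes met, 4 were higher in ELA and 2 were lower. The higher ones were Enam, Ambn, Rufy3 (0.51, SE 0.23) and Stbd1 (0.48, SE 0.22), and the lower ones were Art3 (-0.86, SE 0.29) and Naaa (-0.36, SE 0.15). Every ELA mouse lay above every control for 1 of the 30, Enam, and below every control for 2, Art3 and Naaa, against 1.39% and 1.29% of all genes. Rufy3, Stbd1, Art3 and Naaa were named after their values were seen. DESeq2, which called 0.718% of all genes, called 1, Enam, as did limma-voom. Near Odam, Csn3 and Amtn, 9 of 12 tested genes had a positive difference, and near Odaph 12 of 18 had a negative one. Over all genes tested, 52.6% had a positive one. The nearest tested gene to Csn3, and the only tested one between Odam and Csn3, was BC037156, which lay 16.8 kb away and stood at -0.38 (SE 0.45). Before Odam, Gm42794 stood at 1.19 (SE 0.61) with 0.466 ± 0.125 CPM in ELA and 0.205 ± 0.215 CPM in controls. No gene between Csn3 and Amtn was expressed enough to test, with 11 of 16 at 0 in every library. On either side of Odaph, Thap6 stood at -0.00045 (SE 0.19) and Cdkl2 at 0.06 (SE 0.15), so the closest genes to Odaph had small differences.

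**Figure D5:**
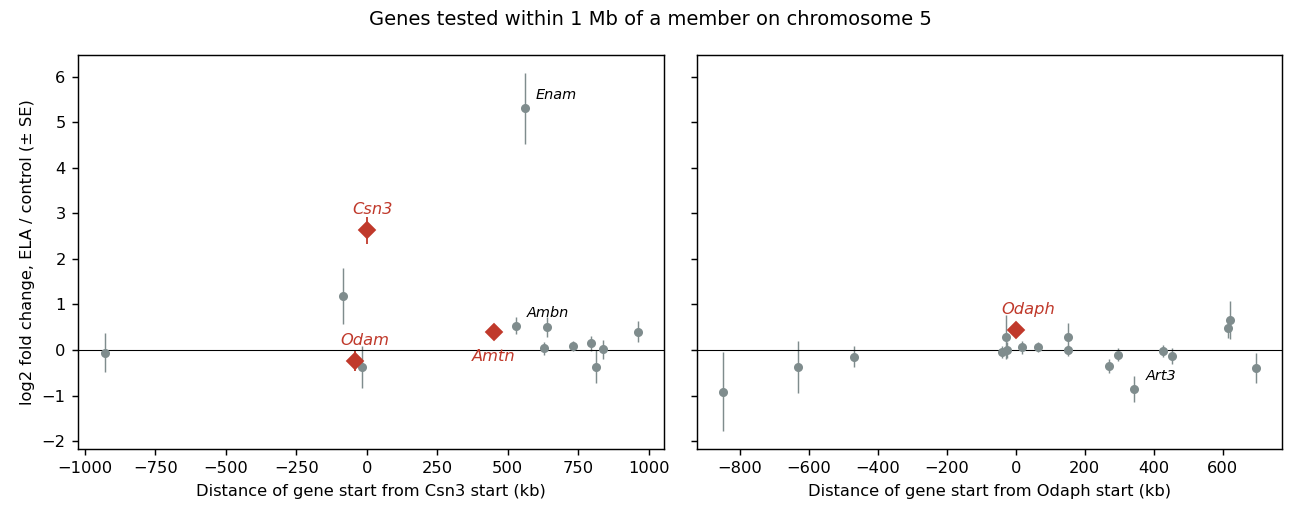
Log2 difference (± SE) of genes tested within 1 Mb of a member start, against distance in kb from the Csn3 start (left) or the Odaph start (right); members are red diamonds. Csn3 at 2.63 and Enam at 5.30 stand apart, and the other genes lie between -0.91 and 1.19.

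The genes whose pattern over the 9 mice was most like each member were found by the root-mean-square (rms) distance between centred log2 CPM profiles, over 14409 genes with a mean of at least 1 CPM. For Csn3 they were Phox2a (0.391), a homeobox gene of autonomic neurons, Atp7b (0.518), a copper transporter, and Car6 (0.537), with Amelx at rank 5 (0.564). For Odam they were Nxt2 (0.0891), Trim12a (0.0912) and Plb1 (0.0938), a phospholipase. For Amtn they were Ndufa11 (0.106), of mitochondrial complex I, Etfdh (0.109), of the mitochondrial electron transfer chain, and Mpzl2 (0.113), an adhesion gene, with the near neighbour Ambn at rank 5 (0.122). For Odaph they were Cited2 (0.156), Phyh (0.157) and Irf5 (0.158), and Amtn held rank 298 (0.247). Odam and Amtn lay 0.390 apart by this measure, with Odam at rank 6677 of 14409 from Amtn, near the middle of the ranking. The distances are smaller for genes that vary little, since the members' own rms deviation was 1.34 for Csn3 and 0.318, 0.296 and 0.310 for Odam, Amtn and Odaph. The Csn3 profile holds the group difference for which Csn3 was picked. Genes with a similar group difference therefore lie near it, and its matches are no separate result.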

How the data were processed

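Poly(A) RNA from the enamel organs of 9 mice was sequenced, 1 library per mouse. The authors deposited raw counts per gene, with gene lengths and GRCm38 coordinates. Of 54409 gene identifiers also in GENCODE M21, 98.3% had the same coordinates there. CASAVA, HISAT2 and HISAT appear in the submitters' processing notes with no version. Which program counted the reads, whether it used strand, and which annotation release it used is not given in the sources used here. All columns were assigned to samples by title. Groups were taken from the labelled treatment. Any 2 mice of a group differed beyond counting noise (a chi-square of 21.3 to 134 for each degree of freedom), so no library was a duplicate.

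ELA was compared with control in edgeR 4.0.16 (R 4.3.3), with filterByExpr at a minimum count of 10, TMM scaling, a robust quasi-likelihood fit and Benjamini-Hochberg adjustment over 15909 genes at a threshold of 0.05. DESeq2 1.42.0, the tool of the study, and limma 3.58.1 (voom) were alternatives, with other scalings, other filters and the omission of each mouse. The script was tested on simulated data. Ratios were tested by two-sided exact permutation over mice (scipy 1.17.1), adjusted over 3 ratios. Intervals are 95% intervals on the moderated degrees of freedom. FPKM were computed here from TMM-scaled CPM and length. Profiles used log2 of CPM plus 0.1.

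The members and 18 gene lists were chosen with earlier results of these data known. Genes named are the members, the listed SCPP genes, the nearest tested gene on each side of a member, neighbours past the threshold, the 2 smallest p values of each other list and the 3 most alike profiles of each member; of the marker lists, sums and counts are given in place of single genes. One gene that this rule names is not reported here. Prlr, Lalba, Wap and Glycam1 were named after their values were seen. Each mouse was treated as independent. The methods name 2 litters per group for the pups used in qPCR, in groups of the same sizes, and do not say whether these were the sequenced pups. The title numbers, 2 per group, may mark litters, and p-values over mice would then be too small.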

Additional observations from a re-analysis of the deposited data

Results flagged for a closer look

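Among 42 groups of values examined, 2 held a mouse whose distance from its nearest neighbour was large for the range of its group. Such a flag arises by chance in about 5% of groups, so 2 flags are close to what chance gives. In control mice, Spp1, which encodes osteopontin, stood at 475.2 CPM in c-202-1-1, with the next highest control at 300.0 CPM (gap over range 0.832). In ELA mice, Mepe, another acidic family gene, stood at 3.34 CPM in t-205-1-3, with the next highest ELA mouse at 1.39 CPM (0.726). The library t-205-1-3 also held the high keratinocyte markers. No value of Csn3, Odam, Amtn or Odaph was flagged in this way.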

How the results depend on the processing

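Over 23 alternatives Csn3 kept its direction, from 1.90 to 2.97 on the log2 scale. Its value moved by more than the spread between mice only without the mice titled t-203, to 1.90, and that alternative turned Odam to 0.0098. Amtn ranged from 0.31 to 0.49 (adjusted p 0.567 to 1.0 over edgeR, DESeq2 and limma-voom, unadjusted p below 0.05 in 7 of 23) and Odaph from 0.32 to 0.57 (adjusted p 0.496 to 1.0, unadjusted p below 0.05 in 17). With group medians in place of means, the differences were 0.81 for Amtn to Odam and 0.73 for Odaph to Odam, both with an adjusted p of 0.0714 by exact permutation. With 1 mouse left out, Amtn to Odam ranged from 0.57 to 0.75, Odaph to Odam from 0.57 to 0.81, and Odaph to Amtn from -0.097 to 0.15, with a negative sign without c-204-1-2 (-0.097), c-202-1-1 (-0.026) or t-205-1-1 (-0.032). Both ratios to Odam stayed past the adjusted threshold only without t-205-1-3 (adjusted p 0.0429). With a control omitted, the exact test allows no p below 0.0357, which cannot pass after adjustment over 3 ratios when 2 share it. Leaving out the mice of 1 title number, a choice made after seeing the data, gave for Amtn to Odam and Odaph to Odam 0.64 and 0.71 (without c-202), 0.65 and 0.66 (without c-204), 0.31 and 0.54 (without t-203) and 0.87 and 0.78 (without t-205), all weaker in their test, and -0.088 for Odaph to Amtn without t-205. With the mean of each title number as 1 sample, also chosen after seeing the data, these ratios differed by 0.59 and 0.66 (adjusted p = 0.5 by exact permutation). Counts summed by title number gave -0.22 for Odam, 0.37 for Amtn and 0.44 for Odaph, with edgeR adjusted p of 0.988, 0.874 and 0.623. Neighbours called rose from 0 to 1, Enam, with DESeq2, with limma-voom and without t-205-1-3, a range of 0 to 1 over the single omissions. DESeq2 called 138 genes in all where edgeR called 10.

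No paired analysis was possible because the labels give ELA and control mice no shared numbers. Title number and group cannot be told apart, and 4 and 5 mice limit the tests to large differences.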
